A study of Mus musculus with 9 samples.

Results

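The 7 genes *Adipoq*, *Cfd*, *Pparg*, *Cebpa*, *Lpl*, *Fabp4* and *Plin1* are the classical genes of fat cells, and they were read here in sorted stromal cells of the mouse knee. They were chosen by name from the 54534 genes listed in each of 9 single-cell RNA libraries, and all 7 were found in every gene list. The libraries came from knees of *Gdf5-Cre;Tom;Pdgfrα-H2BGFP* mice aged 11 to 12 weeks. In these animals tdTomato (Tom) marks descendants of the embryonic joint interzone, where the *Gdf5* regulatory sequence drives Cre, and GFP marks cells in which the *Pdgfrα* promoter is active, a pan-fibroblast reporter. Live cells released by collagenase were sorted as Tom+ (*Gdf5*-lineage) or as Tom-GFP+ (non-*Gdf5*-lineage with *Pdgfrα* activity). Knees were naive (steady state) or were taken 6 days after surgery to the right knee, in which the joint was opened and the trochlear cartilage scratched to its full depth. There were 2 Tom+ steady, 1 Tom-GFP+ steady, 4 Tom+ injured and 2 Tom-GFP+ injured libraries. The labels do not tie libraries to animals, so p-values refer only to these libraries. The edgeR test used below for summed counts shares its estimate of spread across genes. A very small edgeR p-value from few libraries thus does not measure the spread of that gene alone. The study describes the mice behind the Tom-GFP+ libraries as matched to Tom+ ones but the sources used here do not name the matching libraries, so the comparisons between lineages were fitted without pairing.

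*Pparg* and *Cebpa* encode the transcription factors that drive adipocyte differentiation and then maintain one another. They act on genes of fat handling, among them *Lpl* (the lipase that frees fatty acids from circulating triglyceride), *Fabp4* (an intracellular fatty acid carrier) and *Plin1* (the coat protein of the lipid droplet), and on the secreted products *Adipoq* (adiponectin) and *Cfd* (adipsin, complement factor D). In the knee, adipocytes lie in the infrapatellar fat pad and the subsynovial layer, and in bone marrow *Adipoq* is also made by *Lepr*+ reticular stromal cells that hold no lipid droplet. *Fabp4* is likewise a gene of capillary endothelium, and *Lpl* and *Cebpa* are used by macrophages, so a single member does not mark a fat cell.

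On mouse genome build GRCm38, *Adipoq* (ENSMUSG00000022878) lies on chromosome 16 from 23146536 to 23158028 on the plus strand. *Cfd* (ENSMUSG00000061780) spans 79890853 to 79892655 on the plus strand of chromosome 10. *Pparg* (ENSMUSG00000000440) is the longest member and runs from 115360951 to 115490399 on the plus strand of chromosome 6. *Cebpa* (ENSMUSG00000034957) occupies 35119293 to 35121928 on the plus strand of chromosome 7. *Lpl* (ENSMUSG00000015568) extends from 68880491 to 68907448 on the plus strand of chromosome 8. *Fabp4* (ENSMUSG00000062515) is on the minus strand of chromosome 3 between 10204088 and 10208576. *Plin1* (ENSMUSG00000030546) is on the minus strand of chromosome 7 between 79720218 and 79732903. All 7 are protein-coding.

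*Adipoq*, *Cfd* and *Plin1* are the 3 members whose UMIs (unique molecular identifiers, one per captured RNA molecule) sat almost wholly in a small set of cells, so the 250 bases before their RefSeq start sites (GRCm38.p6) are shown, 5′ to 3′ along the gene, at chr16:23146286-23146535 (plus), chr10:79890603-79890852 (plus) and chr7:79732777-79733026 (minus). Capitals mark matches on either strand to 4 searched motifs, which were the TATA box (TATAAA), the CCAAT box (CCAAT), the half-site of nuclear receptors (AGGTCA) and a core recognised by C/EBP proteins (TTGCNNAA).
Adipoq: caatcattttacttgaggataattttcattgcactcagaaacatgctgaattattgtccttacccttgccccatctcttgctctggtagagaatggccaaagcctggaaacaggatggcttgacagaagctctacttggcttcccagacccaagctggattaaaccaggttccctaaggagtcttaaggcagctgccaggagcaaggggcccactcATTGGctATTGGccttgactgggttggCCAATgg
Cfd: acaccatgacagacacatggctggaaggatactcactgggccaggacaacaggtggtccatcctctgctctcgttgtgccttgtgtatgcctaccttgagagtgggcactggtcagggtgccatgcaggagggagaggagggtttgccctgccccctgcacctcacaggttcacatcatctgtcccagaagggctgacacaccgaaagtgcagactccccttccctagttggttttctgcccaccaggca
Plin1: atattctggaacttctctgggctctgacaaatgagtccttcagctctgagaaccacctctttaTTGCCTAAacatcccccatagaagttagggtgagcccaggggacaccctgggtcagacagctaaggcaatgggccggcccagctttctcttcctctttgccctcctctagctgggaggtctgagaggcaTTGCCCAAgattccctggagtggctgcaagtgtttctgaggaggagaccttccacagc
The *Adipoq* window held 3 CCAAT boxes, 34, 27 and 7 bases before the start. The *Plin1* window held 2 TTGCNNAA matches, 187 and 58 bases before the start, and the *Cfd* window held no match to any of the 4. Of 32851 mouse windows of the same length, CCAAT was present in 33.8%, AGGTCA in 14.02%, TATAAA in 12.4% and TTGCNNAA in 9.56%. Windows were found for 5 of the 7 members. These matches describe the letters of the windows and were not tested against the readouts.

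The libraries held 333 to 865 barcodes and 2866464 to 15033902 UMIs each, and 4788 of 5161 barcodes passed the cell filter. Cells were gated by marker genes that include none of the 7 members, which gave 4649 stromal cells with median depths of 8050.5 to 18571 UMIs per library, 106 immune cells, 7 endothelial cells and 25 cells with mixed markers. Scrublet called 52 barcodes (1.09%) as doublets, and 14 barcode sequences occurred in more than 1 library. The 3 steady libraries and Tom+ injured replicate 1 have an older gene-list format and the 5 others a newer one, so in part format and state cannot be told apart. Cells with no immune, endothelial, other non-stromal or mixed call were counted as stromal. Of these, 649 fell in no marker gate and are called unassigned stroma. FLS (fibroblast-like synoviocytes of the lining) formed a gate of 694 cells in which *Prg4*, itself one of the markers that set this gate, was detected in 100% of cells. Sublining fibroblasts were split into subsets F1 to F6 and a remainder, and mural, osteoblast, chondrocyte and tenocyte gates were defined likewise.

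*Adipoq* was rare and concentrated. Of the kept cells, 99 had at least 1 *Adipoq* UMI and 67 had 2 or more; these 67, of which 64 were stromal, are called *Adipoq*-carrying below. They held 98.7% of all 2532 *Adipoq* UMIs. A marrow reticular-like gate (*Lepr*, *Cxcl12*, *Kitl*, *Ebf3*, *Foxc1*, *Esm1*, *Il7*, *Hp*) of 28 cells held 24 of the 67, and an adipocyte-like gate of 23 cells (at least 2 of *Cidec*, *Lep*, *Retn*, *Plin4*, *Lipe*, *Pck1* and *Adrb3* detected) held 20. In the adipocyte-like gate *Plin4* was detected in 95.7%, *Lipe* in 69.6% and *Cidec* in 65.2% of cells but *Lep* and *Pck1* in 4.35%, and its leading genes were *Car3*, *Cfd* and *Adipoq*. The reticular-like gate had 1 to 7 cells in 8 libraries, while 20 adipocyte-like cells were in Tom+ injured replicate 4 and the 3 others, in the Tom+ steady libraries, had no *Adipoq*. *Adipoq* was detected in 89.3% of reticular-like cells (exact 95% interval 71.8 to 97.7) at a median depth of 5104 UMIs. In adipocyte-like cells the share was 87.0% (66.4 to 97.2) at 12189 UMIs. It was detected in 1 of 106 immune cells (0.943%, median 8220.5 UMIs), in 5 of 694 FLS (0.720%, 17366 UMIs) and in 0 of 120 osteoblast-lineage cells, which allows a share of up to 3.03%. After thinning every cell to 2000 UMIs, which left out 84 shallower cells, the shares were 88.5% in reticular-like and 82.6% in adipocyte-like cells, against 1.06% in immune cells and 0.144% in FLS. Intervals cover counting error only. The score needed for the reticular-like gate was set with *Adipoq* counts in view, so its *Adipoq* share is a description. At score cuts of 0.3, 0.4, 0.5 and 0.6 the gate held 54, 28, 24 and 23 cells, of which 68.5%, 89.3%, 100% and 100% had *Adipoq*.

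**Figure D1:**
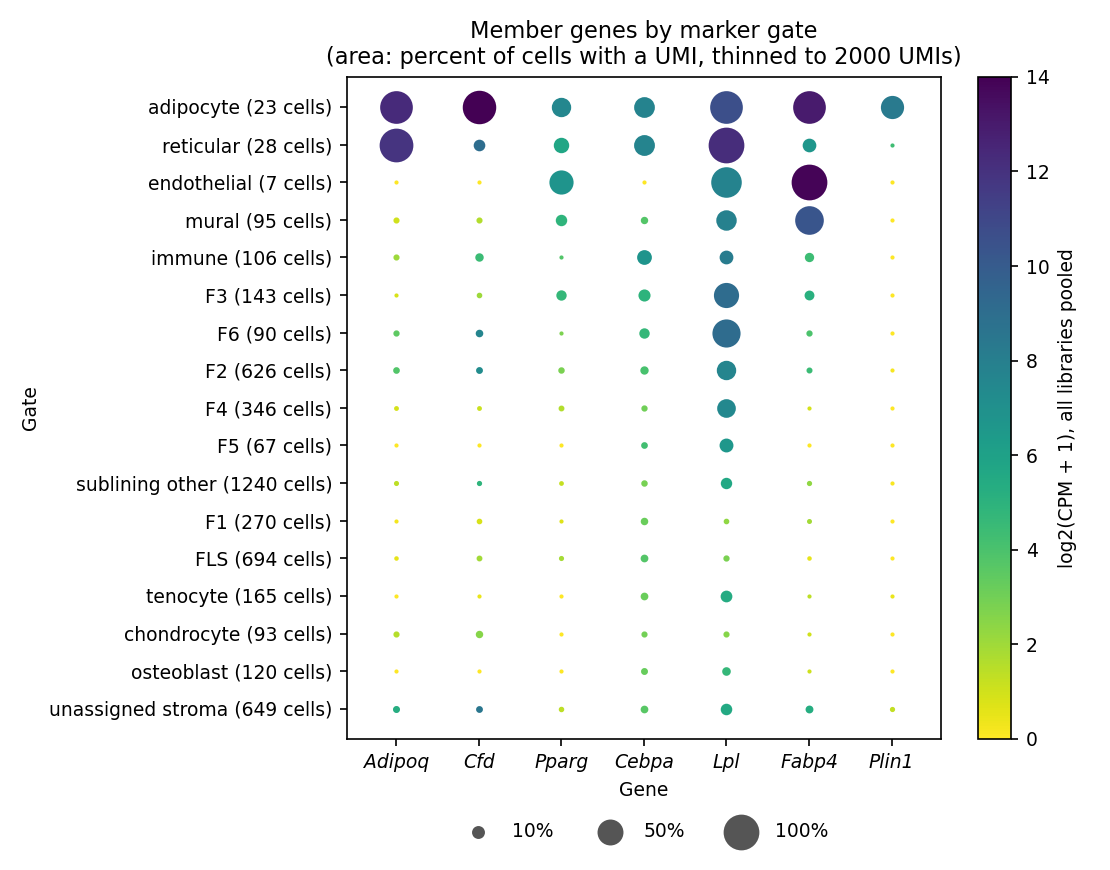
The 7 genes (columns) in each marker gate (rows), with dot area for the share of cells with at least 1 UMI after thinning to 2000 UMIs and colour for log2(CPM + 1) over the pooled libraries. Adipoq and Lpl are high in the reticular-like gate (88.5% and 100% of 26 cells) while Cfd, Fabp4 and Plin1 join them in the adipocyte-like gate, and Fabp4 without Adipoq stands out in mural (62.1%) and endothelial cells.

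The *Adipoq*-carrying cells fell into 2 kinds by their *Cfd* counts, a split made after the values were seen. In 40 cells *Cfd* ran from 14 to 1963 UMIs (median 240.5), in 26 cells it was 0 or 1, and a single cell lay between with 3. The *Cfd*-positive cells were in 5 libraries, 34 of them in Tom+ injured replicate 4, and 20 were in the adipocyte-like gate, 10 in unassigned stroma and 5 in F2. The *Cfd*-negative cells were in 8 libraries, and 23 of them were reticular-like. *Adipoq* itself was of similar size in both, with a median of 35 UMIs per cell (range 2 to 166) in the former and 17.5 (2 to 57) in the latter, at median depths of 11337.5 and 5061 UMIs.

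The kinds differed in the other members, in counts pooled over libraries. Tom+ injured replicate 4 gave 34 of the 40 *Cfd*-positive and 3 of the 26 *Cfd*-negative cells, so kind and library are in part confounded. *Fabp4* was detected in 40 of 40 *Cfd*-positive and 4 of 26 *Cfd*-negative cells. In the *Cfd*-positive cells it was at 6472 CPM in that library and 4437 CPM in Tom+ injured replicate 2. Elsewhere it was at 620 (Tom+ injured replicate 3), 907 (Tom-GFP+ injured replicate 2) and 1022 CPM (Tom+ steady replicate 2). *Plin1* was detected in 23 of 40 and 0 of 26, and the same held for *Car3*, the carbonic anhydrase abundant in fat, in 38 of 40 and 0 of 26. *Plin1* was at 0 in the 1 *Cfd*-positive cell each of Tom+ steady replicate 2 and Tom+ injured replicate 3. It was at 36.3 to 462 CPM in the other libraries with *Cfd*-positive cells. *Pparg* was detected in 28 of 40 and 6 of 26 cells. *Cebpa* was found in 27 of 40 and 15 of 26. *Lpl* did not follow *Cfd*, since it was detected in 39 of 40 and 25 of 26 cells, with a median of 17 UMIs in the *Cfd*-positive and 26.5 UMIs in the *Cfd*-negative cells. Several genes of the marrow reticular list were found mostly in the *Cfd*-negative cells. *Lepr*, the leptin receptor, was detected in 1 of 40 *Cfd*-positive and 24 of 26 *Cfd*-negative cells, *Kitl* (stem cell factor) in 9 and 25, and *Esm1* in 2 and 23. The chemokine gene *Cxcl12* and *Hp* (haptoglobin) did not follow them, since *Cxcl12* was detected in 39 of 40 and 25 of 26 cells (3965 and 25292 CPM, UMIs per 1000000 UMIs) and *Hp* in 39 and 24 (7738 and 3396 CPM). The 8 genes of that list summed to 11809 CPM in the *Cfd*-positive and 32863 CPM in the *Cfd*-negative cells. The 6 sublining markers summed to 2946 and 71.3 CPM, and 90% and 0% of the cells had at least 3 of them. However, *Thy1* and *Cd34* were each detected in 2 of 40 and 0 of 26. The other markers of that list are not particular to the sublining, since *Clec3b*, *Ly6a*, *Ly6c1* and *Dpt* were detected in 85.0%, 98.9%, 96.7% and 95.5% of FLS. In the Tom+ libraries the tdTomato transcript was detected in 38 of 38 *Cfd*-positive and 17 of 20 *Cfd*-negative cells, at median depths of 11202 and 5650 UMIs. Immune markers summed to 61.6 CPM in the *Cfd*-positive cells, 1 of which was in the immune gate, and to 6.48 CPM in the *Cfd*-negative cells, and their part was not tested.

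**Figure D2:**
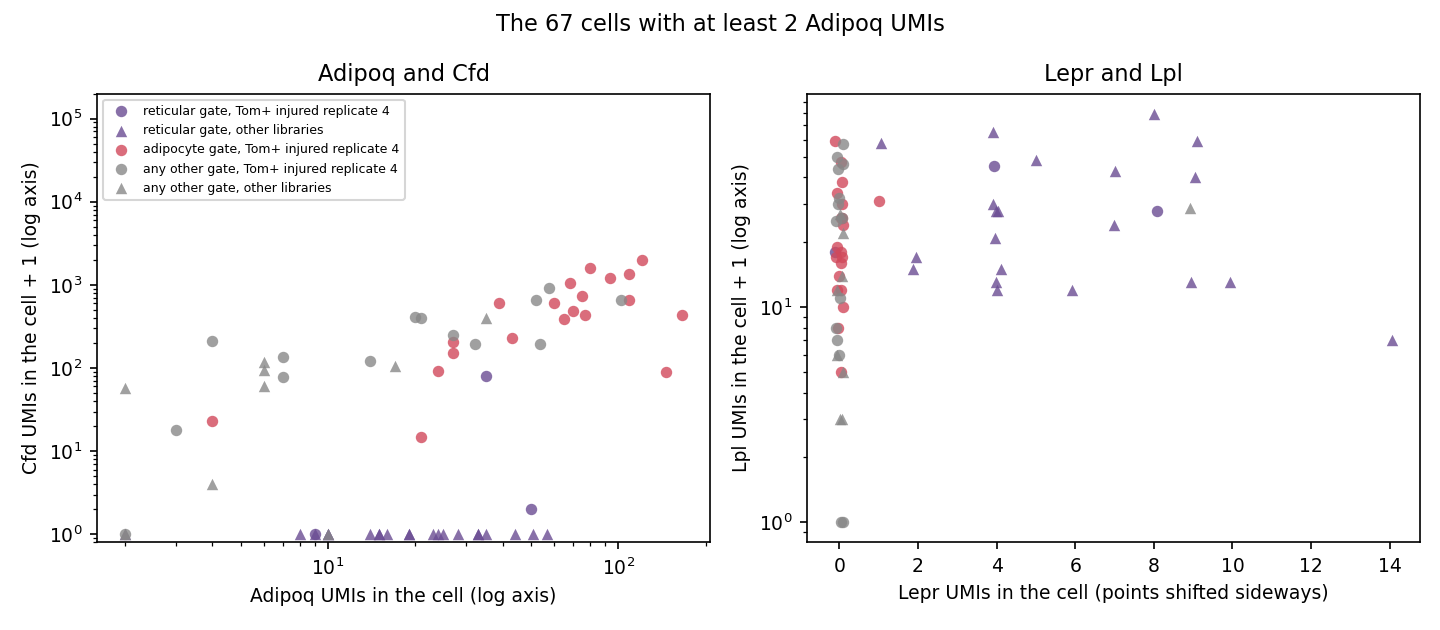
Each point is one of the 67 cells with 2 or more Adipoq UMIs, with Adipoq against Cfd + 1 on log axes (left) and Lepr against Lpl + 1 on a log axis (right), colour for the gate and shape for Tom+ injured replicate 4 against the other libraries. All reticular-like cells but 1 lie along the bottom left panel with 0 or 1 Cfd UMI, adipocyte-like cells lie at 14 or more, and in the right panel Lpl is high with and without Lepr.

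*Adipoq* sat in the same cells as *Lpl* or *Pparg*. Of the 64 *Adipoq*-carrying stromal cells, 63 had *Lpl*, 33 had *Pparg*, 63 had either and 1 had neither. They had *Cebpa* in 41 cells, *Fabp4* in 43, *Cfd* in 41 and *Plin1* in 23, and 13 cells had all 7 members. Stromal cells with exactly 1 *Adipoq* UMI looked different, since of 32 such cells 11 had *Lpl*, 1 had *Pparg* and 21 had neither. Of the 4553 stromal cells without *Adipoq*, 26.9% had *Lpl*, 3.03% *Pparg*, 11.5% *Cebpa*, 4.09% *Fabp4* and 2.11% *Cfd*, and 3 cells had *Plin1*. In *Lpl* and *Pparg* the 32 cells with a single UMI thus lay nearer the *Adipoq*-free than the carrying cells.

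The same comparison was made within the 4 libraries that held at least 5 carrying cells, with cells thinned to 2000 UMIs. *Lpl* was detected in 89.1% ± 8.25 (SD, n = 4 libraries) of carrying cells and 9.41% ± 5.41 of *Adipoq*-free cells, higher in 4 of 4 libraries and without overlap. *Pparg* was detected in 24.9% ± 10.1 against 0.530% ± 0.263, also in 4 of 4 libraries. *Cebpa* reached 30.3% ± 10.0 against 1.82% ± 0.620, again in every library of the 4. For *Cfd* the shares were 39.9% ± 39.95 and 0.860% ± 1.63 (3 of 4 libraries), with 94.4% of carrying cells in Tom+ injured replicate 4, 40% in Tom-GFP+ injured replicate 2, 25% in Tom+ injured replicate 2 and 0% in Tom+ injured replicate 1. *Fabp4* gave 32.8% ± 37.2 and 2.15% ± 1.38 (3 of 4), and *Plin1* gave 10.8% ± 14.5 and 0% (2 of 4). With 4 libraries the exact 2-sided sign-flip permutation test cannot go below p = 0.125, and the values adjusted over the 6 members ran from 0.25 to 0.5, so none passed. The libraries differed most in *Cfd* and *Fabp4* and least in *Lpl*. Without thinning, the carrying cells' share of *Lpl* was 99.3% ± 1.39 against 23.6% ± 7.94.

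UMIs summed over carrying cells and over *Adipoq*-free stromal cells of the same 4 libraries were compared with edgeR's quasi-likelihood test, in which 11.6% of 10827 genes were called at a Benjamini-Hochberg adjusted p of 0.05 (424 or 3.92% higher, 835 or 7.71% lower). All 6 other members were called higher. Over all libraries *Plin1* was found in 3 of 4553 *Adipoq*-free stromal cells, and carrying cells held 99.2% of *Cfd* UMIs. These members could thus hardly have been called lower. *Lpl* averaged 3848 CPM ± 2235 (SD, n = 4) in carrying cells and 51.4 ± 24.5 in *Adipoq*-free cells (log2 fold change 5.68, SE 0.45, edgeR adjusted p = 2.60e-33). *Pparg* averaged 119 CPM ± 61.4 and 2.36 ± 0.470 (log2 fold change 5.24, SE 0.54). *Cebpa* averaged 196 CPM ± 108 and 10.49 ± 1.43 (3.74 on the log2 scale, SE 0.44). These 3 were higher in all 4 libraries. *Cfd* (10.95), *Plin1* (9.29) and *Fabp4* (5.24 on the log2 scale) were higher in 3 of 4. The *Fabp4* call was lost under the stricter cell filter (log2 fold change 2.18, edgeR adjusted p = 0.110). Without Tom+ injured replicate 2 the genes called fell to 748, and without Tom+ injured replicate 4 the *Cfd* call held.

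Outside the 7 members, 51 names of the adipocyte programme were listed by role, and 33 were tested in this comparison. Of these, 13 were higher and 0 lower, with a median log2 fold change of 1.098 against -0.39 over all genes tested. Genes entered the comparison by their counts over both sums. Programme genes near 0 in *Adipoq*-free cells, such as *Adrb3* (0 CPM) and *Plin4* (0.514 CPM), could thus hardly be called lower, and the split rests in part on this. All 3 tested secreted-factor genes and 3 of 4 lipid-droplet genes were higher, against 2 of 9 genes of fatty acid and triglyceride synthesis. *Cd36*, the fatty acid translocase, averaged 211 CPM ± 237 in carrying cells and 0.823 ± 0.662 in the others (log2 fold change 7.28), and *Agt*, angiotensinogen, 593 ± 480 and 2.75 ± 1.86 (6.80). The carrying sums pool both kinds of cell, and *Agt* was among the leading genes of the reticular-like and not of the adipocyte-like gate. *G0s2*, an inhibitor of lipolysis, averaged 235 CPM ± 114 against 4.35 ± 2.28 and was higher in 4 of 4 libraries. *Plin4*, a droplet coat protein, and *Klf15*, an adipogenic transcription factor, were higher in 2 of 4 libraries (5.87 and 4.70 on the log2 scale). *Adrb3*, an adrenergic receptor of fat, averaged 48.7 CPM ± 82.2 in carrying cells and was at 0 in the others, and its call was lost with DESeq2 (adjusted p = 0.0894). *Scd1* (2.53), a desaturase, and *Pnpla2* (2.58), the first lipase of stored triglyceride, were not called without Tom+ injured replicate 4 (edgeR adjusted p = 0.326 and 0.555).

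The 10 other genes with the largest fold change that were higher in all 4 libraries were *Esm1* (12.65), *Kng1* (10.55), *Gdpd2* (10.44), *7530428D23Rik* (9.28), *Mrap* (8.99), *Trf* (8.29), *Marc1* (8.15), *Sult1a1* (7.64), *Serpina3g* (7.61) and *Il7* (7.15), all as log2 fold changes. *Esm1* and *Il7* are on the reticular marker list, and *Kng1* and *Gdpd2* were, like *Esm1*, among the leading genes of the reticular-like gate. *Esm1* averaged 906 CPM ± 875 in carrying cells and 0.0690 ± 0.138 in the others. *Mrap*, an accessory protein of melanocortin receptors, averaged 185 CPM ± 136 and 0.239 ± 0.355.

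The UMIs of *Cfd* and *Plin1* lay in the same few cells almost as fully as those of *Adipoq*. *Adipoq*-carrying cells held 99.2% of 17626 *Cfd* UMIs and 97.2% of 108 *Plin1* UMIs. For the other 4 members they held a minority, 39.0% of 7024 *Fabp4*, 28.6% of 280 *Pparg*, 25.3% of 6291 *Lpl* and 12.7% of 848 *Cebpa* UMIs. The counts of *Pparg* and *Plin1* are small and limit what can be read from them per gate.

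Most *Fabp4* outside the carrying cells was in vascular and mixed-marker cells. With the *Adipoq*-carrying cells set apart, endothelial and mixed-marker cells held 39.1% of all its UMIs and the 95 mural cells 17.4%. *Fabp4* was detected in 7 of 7 endothelial cells and in 71 of 95 mural cells (74.7%, exact interval 64.8 to 83.1), against 8 of 106 immune cells (7.55%) and 4 of 694 FLS (0.576%), at median depths of 12198, 8229, 8220.5 and 17366 UMIs. Thinned, the shares were 62.1% in mural cells, 4.26% in immune cells and 0.144% in FLS. In the 3 libraries with at least 10 mural cells, *Fabp4* was at 722, 1235 and 1369 CPM in mural cells and averaged 6.56 CPM ± 3.77 in the other stroma, with no overlap. That is a log2 fold change of 7.17 (SE 0.44, edgeR adjusted p = 7.77e-56), in a comparison where 6.7% of genes were called higher. The call held in all 9 alternative settings. The 6 endothelial markers summed to 49.0 CPM in the mural gate and 5092 CPM in the endothelial gate, with 4 of the 6 at 0 in mural cells. Among the 68 mural cells with no endothelial marker UMI, 51 (75%) had *Fabp4* at 1491 CPM, and among the 27 with one, 20 (74.1%) had it at 773 CPM.

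Most *Lpl* UMIs lay in sublining cells that were not *Adipoq*-carrying. Sublining gates held 58.1% of its UMIs without counting their *Adipoq*-carrying cells, which with those of all other gates held 25.3%. By gate, it was detected in 84.4% of 90 F6 cells, 73.7% of 95 mural cells, 68.5% of 143 F3 cells, 54.0% of 346 F4 cells and 49.0% of 626 F2 cells, at median depths of 6998 to 9694 UMIs. It was detected in 3.75% of FLS, 4.81% of F1 and 5.38% of chondrocyte-lineage cells although these had 17366, 16780 and 9758 UMIs. Thinned shares kept the contrast, at 59.8% in F6 and 46.8% in F3 against 1.15% in FLS and 0.741% in F1. Immune cells had it in 25.5% (11.7% thinned). All 28 reticular-like cells had *Lpl*, and in the 6 libraries with 2 or more such cells it ran from 2198 to 6783 CPM and *Adipoq* from 1431 to 4964 CPM.

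**Figure D3:**
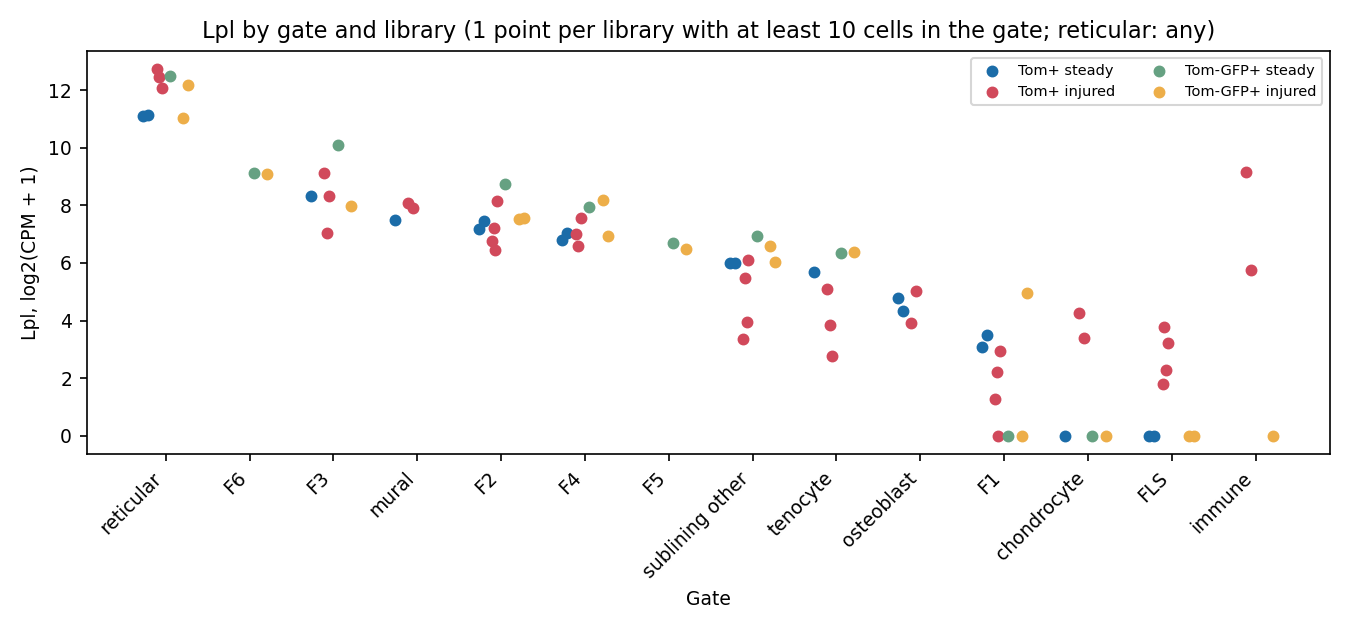
Lpl level, log2(CPM + 1), by gate, each point a library with at least 10 cells in the gate (all libraries for the reticular-like gate), coloured by group. F3 libraries lie between 131 and 1103 CPM, while every FLS library lies at or below 12.6 CPM.

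Each gate was compared with the other stromal cells of the same libraries by edgeR's quasi-likelihood test with the library as a block, in 11 gates that had 10 cells in at least 2 libraries. The share of all genes called in the same direction is given at the first call in each gate. *Lpl* was higher in F2, with a mean of 193 CPM ± 103 against 110 ± 99.4 in 9 of 9 libraries (log2 fold change 1.16, SE 0.16, edgeR adjusted p = 4.05e-05; 11% of genes called higher). In F3 it ran from 131 to 1103 CPM, higher in 6 of 6 libraries (1.93, SE 0.22, edgeR adjusted p = 2.14e-07; 2.25% called higher). Mural cells were at 180, 240 and 272 CPM against a mean of 63.8 (1.90, SE 0.31, edgeR adjusted p = 3.38e-08). In F6 it was at 538 and 558 CPM against 215 ± 168 (1.496, SE 0.35, edgeR adjusted p = 0.00182; 0.892% called higher). *Lpl* was lower in FLS, where 4 of 8 libraries had none and the highest had 12.6 CPM (log2 fold change -4.16, SE 0.34, edgeR adjusted p = 2.64e-07; 20.9% called lower). It was also lower in F1 (-4.30; 8.7% called lower), chondrocyte (-4.82; 11.9% called lower), osteoblast (-2.04; 6.53% called lower) and tenocyte gates (-1.36; 5.83% called lower). In F4 (0.48, SE 0.23, edgeR adjusted p = 0.143) and F5 (-1.14, SE 0.42, edgeR adjusted p = 0.170; 3.7% of genes called in either direction) it did not pass. Without the library block the F2, F3, F6, mural and tenocyte calls were lost, and the F6 call, which rests on 2 libraries, was also lost with DESeq2, the stricter cell filter and the removal of the highest Scrublet scores. The mural call was also lost without Tom+ injured replicate 1.

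*Pparg* was low everywhere, with 280 UMIs in all. It was detected in 69.6% of adipocyte-like cells, 4 of 7 endothelial cells (57.1%), 8 of 25 mixed-marker cells (32%), 21.1% of mural cells, 17.9% of reticular-like cells and 16.1% of F3 cells, against 4.32% of FLS, 1.73% of F4 cells and 0 of 120 osteoblast-lineage, 0 of 93 chondrocyte-lineage and 0 of 165 tenocyte-lineage cells, which allow up to 3.03%, 3.89% and 2.21%. Immune cells had it in 9.43%, and after thinning the shares were 42.9% in endothelial, 26.1% in adipocyte-like, 15.4% in reticular-like, 12% in mixed-marker, 7.37% in mural and 5.67% in F3 cells against 0% of 94 immune cells and 0.433% of FLS. In mural cells it was at 40.1, 24.1 and 40.0 CPM against a mean of 1.68 in the other stroma (log2 fold change 4.05, SE 0.64, edgeR adjusted p = 5.05e-09). In F3 it was at 57.6 CPM in Tom-GFP+ steady replicate 1 and at 0 to 21.8 CPM in the 5 other libraries, a log2 fold change of 2.29 (SE 0.51, edgeR adjusted p = 0.00412) that was lost without that 1 library. Calls of lower *Pparg* in F1 (log2 fold change -2.33) and F4 (-1.53) were lost under the stricter cell filter, with DESeq2 and without Tom+ injured replicate 2, and the F4 call also without each of 5 further libraries (Tom+ steady replicates 1 and 2, Tom+ injured replicates 3 and 4, Tom-GFP+ injured replicate 2).

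*Cebpa* showed no such pattern. It was detected in 5.38% (chondrocyte) to 17.3% (FLS) of cells in the stromal gates other than the reticular-like (53.6%) and adipocyte-like (78.3%) gates, and no gate of the 11 differed from the other stroma, with log2 fold changes from -0.82 in F4 to 1.07 in F3. In immune cells it was detected in 41.5% of 106 cells. After thinning, the shares were 30.8% in reticular-like, 30.4% in adipocyte-like and 13.8% in immune cells, and 1.08% to 8.51% in the other stromal gates.

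Over the 11 gates, 58 pairs of member and gate could be tested, and 39 were called, 7 higher and 32 lower. Of all genes, 11.8% were called lower in F2, 3.58% in F3, 13.2% in F4 and 8.73% in mural cells. All calls for *Adipoq* and *Cfd* were lower, although the F2 gate itself held 6 of the 67 *Adipoq*-carrying cells. Carrying cells held 98.7% of *Adipoq* and 99.2% of *Cfd* UMIs, and most of them were in the other stroma of each comparison. A gate with few of them was thus bound to be lower in both genes, so these calls say little about the gate itself. *Adipoq* averaged 0.328 CPM ± 0.928 in FLS against 55.4 ± 121 in the other stroma and was at 0 in mural, osteoblast and tenocyte sums. *Cfd* averaged 2.45 CPM ± 5.88 in FLS against 402 ± 1073. *Fabp4* was lower in FLS (log2 fold change -7.82), F1 (-4.27), F4 (-5.64), tenocyte (-5.20), chondrocyte (-6.38) and osteoblast gates (-4.43), and its call in F2 (-1.35) was lost in 9 of 15 alternative settings. The *Fabp4* F2 call was lost, among others, without Tom+ steady replicate 1, Tom-GFP+ steady replicate 1 or Tom+ injured replicates 1, 2 or 4. Of all *Fabp4* UMIs, carrying cells held 39.0%, mural cells 17.4% and endothelial and mixed-marker cells, which are not counted as stroma, 39.1%. A gate with few carrying or mural cells was thus bound to be lower in *Fabp4* too, and these calls also say little about the gate itself. With DESeq2 the *Cfd* calls were lost in the F1, F3, mural, osteoblast, chondrocyte and tenocyte gates and held in FLS and F4. The *Adipoq* calls in the F2, mural, chondrocyte and tenocyte gates were lost with DESeq2 too. The chondrocyte calls of *Fabp4* and *Cfd* and the F3 call of *Adipoq* were lost without Tom+ injured replicate 4. The *Adipoq* call in F2 was lost without Tom+ injured replicates 2 or 4 or Tom-GFP+ injured replicate 2, in mural cells without Tom+ injured replicates 1 or 2, and in osteoblast-lineage cells without Tom+ steady replicate 2 or Tom+ injured replicate 2.

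Some *Cfd* and *Adipoq* was found at 1 or a few UMIs in cells of many kinds, and this differed between libraries. Cells with fewer than 2 *Adipoq* and fewer than 10 *Cfd* UMIs were taken for this. In Tom+ injured replicate 4, 91 of 583 such cells (15.6%, exact interval 12.8 to 18.8) had a *Cfd* UMI, at most 3 in a cell and 107 in all. In the other 8 libraries the share was 0% to 0.924%. Within replicate 4 the share was 21.9% of 114 FLS, 14.4% of 333 sublining cells, 9.84% of 61 unassigned cells, 8.33% of 24 immune cells and 29.4% of 17 chondrocyte-lineage cells. At median depths of 17306.5, 11219, 13634, 10603 and 9977 UMIs, the intervals of these 5 shares overlap. *Adipoq* was detected in 24 of the 583 cells. The 24 *Adipoq* UMIs and 107 *Cfd* UMIs give 4.46 *Cfd* per *Adipoq* UMI, against 8.66 in the carrying cells of that library, and *Car3* gave 1.71 against 1.88. The *Car3* ratios did not lie close in the other libraries that had *Adipoq* in such cells. There they ran from 1 to 81, on 1 to 3 *Adipoq* UMIs, against 0 to 0.5 in the carrying cells. The immune share rests on few cells (exact interval 1.03% to 27.0%), so no expression of *Cfd* is read from these low counts, and their source was not tested.

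**Figure D4:**
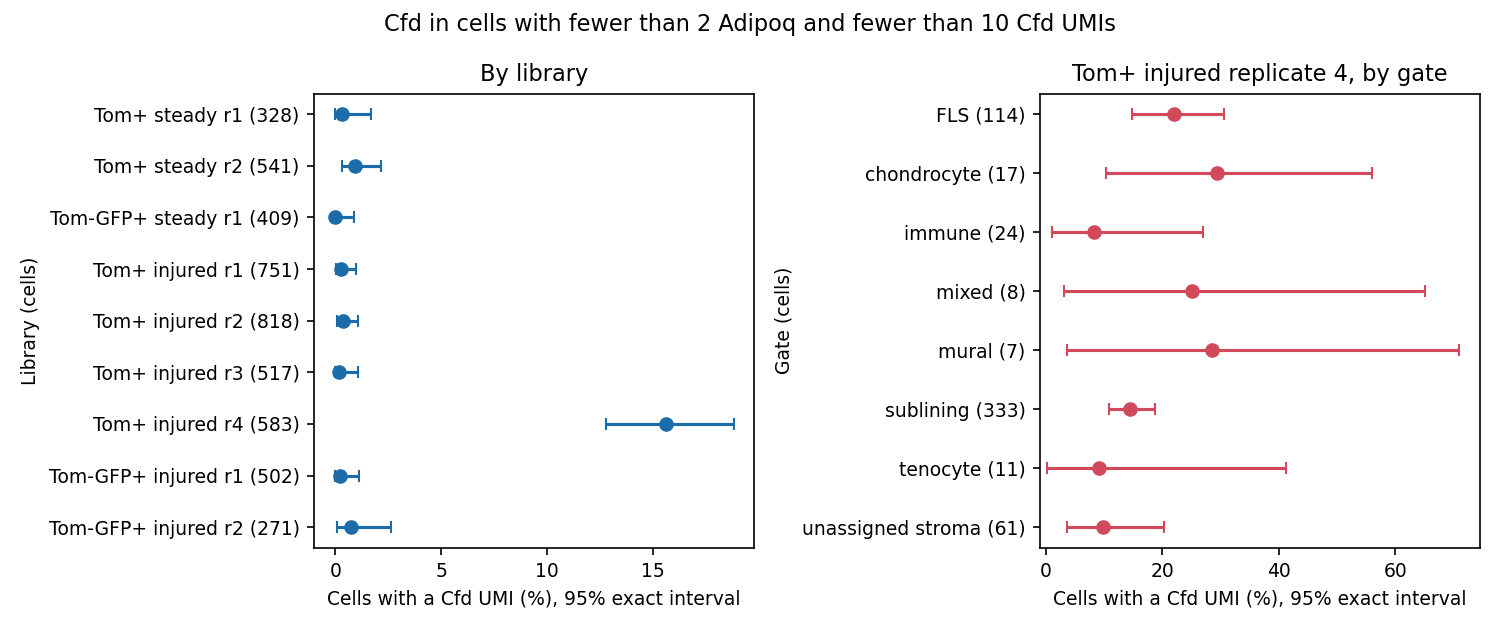
Share of cells (%) with at least 1 Cfd UMI among cells with fewer than 2 Adipoq and fewer than 10 Cfd UMIs, by library (left) and by gate within Tom+ injured replicate 4 (right), with exact 95% intervals. Tom+ injured replicate 4 stands at 15.6% and the 8 other libraries at 0.924% or lower.

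Immune and endothelial cells were compared with stromal cells in the 5 libraries that had at least 5 of them. Both kinds of cell use *Fabp4*, *Cebpa* or *Lpl*, so they stand for cells that lack a member only for *Adipoq*, *Cfd* and *Plin1*. At 2000 UMIs per cell, *Adipoq* was detected in 0.741% ± 1.66 (SD, n = 5) of immune and endothelial cells and 2.23% ± 3.02 of stromal cells, lower in 5 of 5 libraries. In Tom+ injured replicates 2 and 3 and Tom-GFP+ injured replicates 1 and 2, 0% of 7, 44, 6 and 7 such cells had it. At the stromal shares there (1.11%, 0.214%, 0.430% and 1.91%), so few cells would mostly show 0. The direction in these libraries thus says little. *Cfd* was detected in 1.94% ± 3.21 and 2.13% ± 4.09, lower in 3 of 5. *Cebpa* (8.26% ± 7.74 and 2.26% ± 0.837) and *Fabp4* (7.64% ± 7.32 and 2.47% ± 2.50) had the higher mean in immune and endothelial cells. None of the 7 passed the exact 2-sided sign-flip permutation test, whose smallest p is 0.0625 (adjusted p from 0.438 to 0.75).

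The libraries differed widely in how many of these cells they held. The share of stromal cells carrying *Adipoq* was 0.615% and 0.369% in Tom+ steady replicates 1 and 2, and 0.932%, 0.980%, 0.214% and 6.15% in Tom+ injured replicates 1 to 4. It was 0.246% in the Tom-GFP+ steady library and 0.203% and 2.26% in Tom-GFP+ injured replicates 1 and 2. The Tom+ groups overlapped, at 0.492% ± 0.174 (SD, n = 2) and 2.07% ± 2.74 (n = 4), and did not differ by an exact 2-sided permutation test (p = 0.533, smallest possible p = 0.0667). Without Tom+ injured replicate 4 the injured mean was 0.709% ± 0.429.

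In summed stromal UMIs, more cells of a type and more RNA per cell cannot be told apart. *Adipoq* was at 11.7 and 6.57 CPM in Tom+ steady, 15.04, 15.1, 0.961 and 264 CPM in Tom+ injured, 3.02 CPM in Tom-GFP+ steady and 3.31 and 20.1 CPM in Tom-GFP+ injured libraries, in replicate order. *Cfd* was at 1.42 and 13.6 CPM in Tom+ steady, 1.61, 46.4, 15.9 and 2271 CPM in Tom+ injured, 0 in Tom-GFP+ steady and 0.138 and 39.0 CPM in Tom-GFP+ injured libraries. Tom+ injured replicate 4 was thus the highest library for both and held 76.9% of all *Adipoq* and 95.1% of all *Cfd* UMIs. *Plin1* was at 13.6 CPM in that library, at 0.134, 0.458 and 0.251 CPM in Tom+ injured replicates 1 and 2 and Tom-GFP+ injured replicate 2, and at 0 in the 5 others. *Fabp4* was at 22.4 and 11.4 CPM in Tom+ steady, 55.3, 33.1, 8.24 and 364 CPM in Tom+ injured, 12.7 CPM in Tom-GFP+ steady and 4.68 and 11.1 CPM in Tom-GFP+ injured libraries. Its steady and injured values overlap in the Tom+ libraries, while the single Tom-GFP+ steady value lies above those of both Tom-GFP+ injured libraries.

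The transcription factors and *Lpl* varied less. *Pparg* was at 3.55 and 1.69 CPM in Tom+ steady, 1.88, 3.48, 1.92 and 10.7 CPM in Tom+ injured, 11.5 CPM in Tom-GFP+ steady and 1.79 and 3.52 CPM in Tom-GFP+ injured libraries. *Cebpa* was at 7.10 and 9.74 CPM in Tom+ steady, 11.0, 10.3, 8.65 and 19.4 CPM in Tom+ injured, 22.9 CPM in Tom-GFP+ steady and 8.13 and 13.3 CPM in Tom-GFP+ injured libraries. *Lpl* was at 117 and 103 CPM in Tom+ steady, 40.1, 61.6, 21.6 and 178 CPM in Tom+ injured, 363 CPM in Tom-GFP+ steady and 103 and 98.8 CPM in Tom-GFP+ injured libraries. For all 3 genes the single Tom-GFP+ steady library was the highest of the 9. Of its 406 stromal cells, 48 were in F3 and 61 in F6, gates in which *Lpl* was called higher. Tom+ steady replicate 1 had 15 and 3 such cells of 325, and Tom+ steady replicate 2 had 8 and 2 of 542. These sums do not separate this gate mix from RNA per cell.

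**Figure D5:**
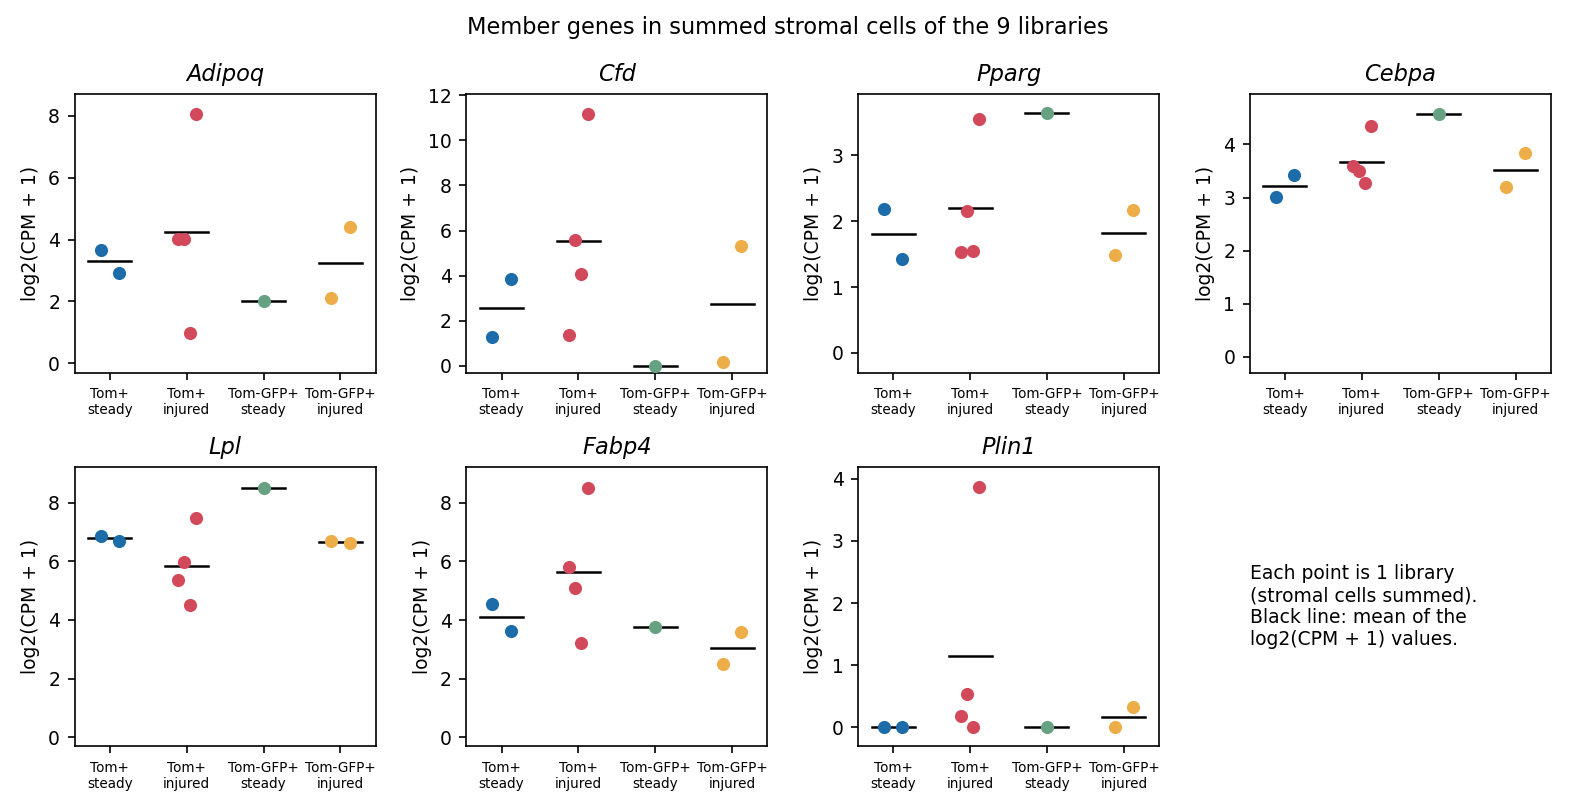
Level of each of the 7 genes in the summed stromal cells, log2(CPM + 1), one point per library, colours for the 4 groups and a line at each group's mean. Tom+ injured replicate 4 is the highest point for Adipoq (264 CPM), Cfd (2271 CPM), Fabp4 (364 CPM) and Plin1 (13.6 CPM), and the Tom-GFP+ steady library is the highest for Lpl (363 CPM), Pparg (11.5 CPM) and Cebpa (22.9 CPM).

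No member passed the adjusted threshold of edgeR's quasi-likelihood test in any of the 5 comparisons over the 9 libraries. After injury in Tom+ stroma, where 13.4% of 14858 genes were called, the log2 fold changes were 6.25 (SE 3.19, edgeR adjusted p = 0.211) for *Cfd*, 3.11 (SE 1.90, 0.293) for *Adipoq*, 2.86 (SE 1.39, 0.192) for *Fabp4*, 0.88 (SE 0.85, 0.509) for *Pparg*, 0.60 (SE 0.38, 0.310) for *Cebpa* and -0.48 (SE 0.67, 0.659) for *Lpl*. Without Tom+ injured replicate 4 those of *Cfd*, *Adipoq* and *Fabp4* were 1.46, 0.30 and 1.03, and those of *Pparg*, *Cebpa* and *Lpl* were 0.015, 0.29 and -1.35. With the gene-list format as a block, *Cfd* (-2.26) and *Pparg* (-0.34) turned in direction. In Tom-GFP+ stroma, where 0.983% of genes were called, injured minus steady was -2.08 (SE 1.04, edgeR adjusted p = 0.269) for *Pparg*, -1.77 (SE 0.92, 0.282) for *Lpl* and -1.04 (SE 0.49, 0.245) for *Cebpa*. The single Tom-GFP+ steady library held no *Cfd* or *Plin1*, and no Tom+ steady library held *Plin1*, so no fold is given for these. With no filter on low counts, *Cfd* (adjusted p = 0.0380) and *Fabp4* (0.0338) passed in edgeR for Tom+ injury, and *Fabp4* (0.0409) for the lineage difference after injury.

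In the steady state, Tom+ minus Tom-GFP+ was -2.19 (SE 1.07, edgeR adjusted p = 0.912) for *Pparg*, -1.74 (SE 0.92, 0.934) for *Lpl* and -1.43 (SE 0.50, 0.677) for *Cebpa* on the log2 scale, with 0.0337% of genes called. In the injured state the difference was 4.95 (SE 2.94, edgeR adjusted p = 0.923) for *Cfd*, 3.90 (SE 1.49, 0.672) for *Fabp4* and 2.71 (SE 1.81, 0.934) for *Adipoq*, with 0.0471% of genes called. Without Tom+ injured replicate 4 these were 0.17, 2.07 and -0.10, and with the replicate number as a block 0.65, 2.48 and 0.58 (edgeR adjusted p = 0.830, 0.194 and 0.879). Without Tom-GFP+ injured replicate 2, which held nearly all the *Cfd* of its group, the *Cfd* and *Adipoq* differences were 11.9 and 4.44. Mural cells, in which *Fabp4* was high, numbered 41, 23, 8 and 7 in Tom+ injured replicates 1 to 4. Both Tom-GFP+ injured libraries held 0 mural cells, and the part of this in the *Fabp4* difference was not tested. The injury effect did not differ between lineages for *Pparg* (2.96, SE 1.34) or *Cebpa* (1.64, SE 0.62) beyond the threshold (edgeR adjusted p = 1.00 for both). No gene passed that last test with edgeR, 345 had an unadjusted p under 0.05, and DESeq2 called 12.

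Among the programme genes, 41 were tested in the stromal sums. In Tom+ stroma 2 were higher (4.88%) and 3 lower (7.32%) after injury, near the shares over all genes (6.39% and 7.05%). The median log2 fold change was 0.05, the same as over all genes. In Tom-GFP+ stroma 1 was higher (2.44%) and 2 lower (4.88%), against 0.377% and 0.606% of all genes, with a median of -0.15. *Angptl4*, a secreted inhibitor of lipoprotein lipase, was at 14.5 and 16.5 CPM in the steady and 120 to 164 CPM in the injured Tom+ libraries (log2 fold change 3.27, SE 0.23, edgeR adjusted p = 6.04e-04). It was at 31.4 CPM in the Tom-GFP+ steady library and 263 and 203 CPM in the injured ones (2.97, SE 0.31, edgeR adjusted p = 0.0134). *Wnt10b*, a brake on adipogenesis, was at 14.2 and 16.3 CPM in the steady and 0.9501 to 1.95 CPM in the injured Tom+ libraries (-3.34, SE 0.28, edgeR adjusted p = 0.00122), and at 20.8 CPM in the steady and 3.03 and 3.02 CPM in the injured Tom-GFP+ libraries (-2.70). *Ebf2*, a transcription factor of adipocyte precursors, was at 76.3 and 76.0 CPM in the steady and 18.4 to 25.9 CPM in the injured Tom+ libraries (-1.76), and at 135 CPM in the steady and 31.5 and 34.4 CPM in the injured Tom-GFP+ libraries (-1.96). The Tom+ calls of these 3 genes held in all 17 alternative settings. The Tom-GFP+ calls of all 3 were lost without Tom-GFP+ injured replicate 1 (edgeR adjusted p = 0.0694 to 0.128), those of *Wnt10b* and *Ebf2* also without Tom-GFP+ injured replicate 2, and that of *Wnt10b* without either Tom+ steady library and with the gene-list format as a block (-2.03, edgeR adjusted p = 0.0861). *Fitm2* (1.08), a lipid-droplet gene, and *Slc27a1* (-0.88 on the log2 scale), a fatty acid transporter, passed in Tom+ stroma, but both calls were lost without either Tom+ steady library or Tom+ injured replicate 3, and that of *Slc27a1* also without Tom+ injured replicate 2 or either Tom-GFP+ injured library. In the lineage comparisons and the test of the difference between lineages, 0 of the 41 were called.

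The genes most alike in pattern were found by Pearson's r of log2(CPM + 1) over 84 sums of gate and library with at least 10 cells, which share libraries and are not independent. For *Adipoq* they were *Cfd* (0.94), *Mrap* (0.88) and *Plin1* (0.82), and for *Cfd* they were *Adipoq*, *Mrap* (0.82) and *Car3* (0.78). *Plin1* was most like *Il17re* (0.96), *Mup10* (0.96) and *Mup1* (0.95), which rests on the 1 adipocyte-like sum, since without it the highest r was 0.80. *Fabp4* and *Pparg* were each the most alike to the other (0.72), although without the adipocyte-like sum *Tinagl1* came first for *Fabp4* (0.68). *Lpl* was most like *Clec2d* (0.74) and *Steap4* (0.74), and *Cebpa* most like *Rbbp6* (0.56). *Adipoq* and *Lpl*, although together in cells, had an r of 0.30 over these sums. The reticular-like gate, in which both were high, had under 10 cells in every library and entered none of the sums. The r values of *Adipoq* with *Lpl* and with *Cfd* thus leave out that gate.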

How the data were processed

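The authors made 10x Genomics 5′ libraries and deposited, per the labels and file headers, UMI counts per gene and barcode (whole numbers, no normalization). The submitters' notes name Cell Ranger (3.0.2 in 5 matrix headers) and GRCm38.p6. Cells needed 500 genes, 1000 UMIs and no more than 10% of UMIs from mitochondrial genes. Gates came from mean scaled marker scores (at least 0.3, or 0.4 for reticular-like and non-stromal cells and sublining subsets, with at least 3 markers detected; the adipocyte-like gate needed 2 of 7 markers detected). Doublets were scored with Scrublet (scanpy 1.11.5) and kept, and an alternative left out the highest 5% of scores.

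UMIs were summed over cells per library and tested with edgeR 4.0.16 (quasi-likelihood, TMM, filterByExpr, Benjamini-Hochberg) in R 4.3.3. DESeq2 1.42.0 was an alternative. Shares were compared by exact permutation tests over libraries (scipy 1.17.1), for detection of members after thinning to 2000 UMIs and for carrying cells without thinning. Intervals are exact 95% binomial (Clopper-Pearson). Fold changes are on the log2 scale of the fitted counts. On simulated data, the Tom+ injury comparison recovered 17.7%, 64.1% and 77.8% of 2-fold, 4-fold and 8-fold changes over 14129 genes, and the *Adipoq*-carrying comparison 0%, 42.9% and 67.2% over 10255 genes. The Tom-GFP+ injury comparison recovered 0%, 32.8% and 59.4% over 14100 genes. False calls were 11 of 112 for Tom+ injury, 4 of 62 for Tom-GFP+ injury and 2 of 72 for carrying cells. The changed genes were drawn at random, so these shares do not measure recovery for the members.

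Named were the 7 members, at most 8 programme genes past the threshold per comparison, the 10 largest changes beside *Adipoq* and the 3 most alike genes per member. The members, lists, gates and rules were chosen with earlier results of these data known. The reticular-like gate had under 10 cells in every library and was not tested.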

Additional observations from a re-analysis of the deposited data

Results flagged for a closer look

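One library stood apart in 6 of 9 gap tests within the 4 Tom+ injured libraries, each comparing the highest or lowest library with its nearest neighbour over the range of the group, a rule that chance meets in about 1 in 20 groups. In Tom+ injured replicate 4 the stromal sums held *Adipoq* at 264 CPM, *Cfd* at 2271 CPM, *Fabp4* at 364 CPM and *Plin1* at 13.6 CPM, all far above the 3 other libraries. The share of stromal cells with 2 or more *Adipoq* UMIs was 6.15% there. The share of its other cells with a *Cfd* UMI was 15.6%. These 6 values are not independent, since the first 5 come from the same 36 stromal cells to a large extent, and the cause was not tested. *Pparg*, *Cebpa* and *Lpl* were also highest in that library among the 4, but within the limit of the rule.

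Barcodes that failed the cell filter, which entered no comparison, also held *Cfd*. There were 94 *Cfd* and 17 *Adipoq* UMIs in the 80 failed barcodes of Tom+ injured replicate 4, where 7.5% of them had any *Cfd*. The 39 failed barcodes of Tom+ injured replicate 2 held 26 *Cfd* and 3 *Adipoq* UMIs, with *Cfd* in 2.56% of them. In both libraries the *Cfd* UMIs thus sat in few of the failed barcodes, and what these were was not tested. The failed barcodes of the 3 steady libraries held 0 *Cfd* UMIs, but there were only 2 and 3 of them in Tom+ steady replicates 1 and 2 and 1 in Tom-GFP+ steady. The 51 of Tom+ injured replicate 3 and the 49 of Tom-GFP+ injured replicate 1 also held 0. The 147 of Tom-GFP+ injured replicate 2 held 1, so steady and injured libraries cannot be set against each other here.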

How the results depend on the processing

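Most single values kept their side of the threshold, and counts of genes called were less stable. For Tom+ injury (1997 genes), a block for gene-list format gave 1132 and the replicate block 1159, and leaving out single libraries gave 142 to 2252 (142 and 148 without Tom+ steady replicates 1 and 2, 1007 and 756 without Tom+ injured replicates 2 and 3). For Tom-GFP+ injury (146), DESeq2 gave 930, no filter on low counts 1294, the format block 235, and leaving out libraries 3 to 1112 (3 and 4 without Tom-GFP+ injured replicates 1 and 2, 52 without either Tom+ steady library, 1112, 68 and 88 without Tom+ injured replicates 1, 2 and 3). For the steady lineage difference (5), DESeq2 gave 78, no filter 116, the stricter cell filter 3, the format block 16, leaving out *Adipoq*-carrying cells 11, leaving out the F3, F6, reticular-like and adipocyte-like gates 11, and leaving out libraries 0 to 17 (0 without either Tom+ steady library or Tom+ injured replicates 2 or 3, 17 and 16 without Tom+ injured replicates 1 and 4, 8 and 9 without Tom-GFP+ injured replicates 1 and 2). For the injured lineage difference (7), DESeq2 gave 91, no filter 169, the replicate block 4, leaving out *Adipoq*-carrying cells 13, and leaving out libraries 0 to 19 (0 without either Tom+ steady library or Tom+ injured replicate 2, 1 without Tom+ injured replicate 3 or Tom-GFP+ injured replicate 1, 19 without Tom+ injured replicate 4). For the interaction (0), DESeq2 gave 12 and no filter 6. For *Adipoq*-carrying cells (1259), DESeq2 gave 686, the stricter filter 691, cells with 1 or more *Adipoq* UMI 728, and leaving out libraries 748 (Tom+ injured replicate 2) to 909. Calls over members and gates (39) were 24 with DESeq2 and 10 without the library term, that is with no replicate block, and 30 to 40 without single libraries. The cause of these shifts was not tested.

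Directions turned for 5 results, none past the threshold. In Tom+ injury, *Cfd* was -2.26 and *Pparg* -0.34 with the format block, and *Pparg* was -0.16 without *Adipoq*-carrying cells. *Adipoq* in the injured lineage difference ran from -0.10 (without Tom+ injured replicate 4) to 4.44 (without Tom-GFP+ injured replicate 2). In immune and endothelial minus stromal cells, *Cfd* ran from -0.757 to 0.262 percentage points without single libraries, the highest without Tom+ injured replicate 4. *Pparg* in the same comparison was 3.84 points without thinning and 2.57 under the stricter filter.

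Libraries share replicate numbers across groups. Deviations from group means of same-numbered libraries correlated at 0.0487 and 0.0507 between Tom+ steady and Tom+ injured and at 0.293 and 0.105 between Tom+ and Tom-GFP+ injured, and no source says that a number marks a shared animal, so the numbers were not taken to pair libraries. Alternatives that left out *Adipoq*-carrying cells or whole gates, and the cuts of the reticular-like score, were chosen after seeing the data. *Plin1* and *Pparg* counts are too low to resolve differences of a few CPM.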
